A study of Mus musculus with 16 samples.

Results

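Skeletal muscle genes were measured in mammary tumors that arose in PyMT mice with wildtype or gene trap Resf1. A list of 10 genes was taken, namely Ckm, Acta1, Myh4, Myh1, Tnnt3, Tnnc2, Actn3, Mylpf, Ttn and Pvalb. They were chosen by name as genes that mark skeletal muscle fibers, with earlier results of these data known. Of these 10 genes, 7 had a row among the 23609 genes of the table, and all 7 were among the 21034 genes tested. Myh4 and Myh1, which encode fast myosin heavy chains, and Pvalb, which encodes the calcium buffer parvalbumin, had no row and are not analysed here.

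Both groups carried the MMTV-PyMT transgene, in which the mouse mammary tumor virus promoter drives the polyoma middle T oncogene in mammary epithelium. Wildtype tumors came from animals with both Resf1 alleles intact, and gene trap tumors came from littermates that were Resf1 +/-, carrying on one allele an EGFP and Cre trap cassette inserted near the start of the gene. The animals were offspring of a cross between the trap line and the FVB PyMT line, and their ages are not given in the sources used here. The labels describe 16 tumors, 8 per group, and values from 5 wildtype and 5 gene trap tumors were used. Each sample was total RNA from tumor tissue, sequenced as a stranded library. The labels do not say whether each tumor came from a separate animal, so p-values measure the spread between these tumors.

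Skeletal muscle fibers contract when actin thin filaments slide along myosin thick filaments within the sarcomere. Troponin on the thin filament responds to calcium released from the sarcoplasmic reticulum, alpha-actinin anchors the thin filaments at the Z-disc, and titin spans from Z-disc to M-band. Creatine kinase regenerates ATP from phosphocreatine. Mammary epithelium makes little of these proteins, whereas the mammary fat pads lie under the skin against the muscle of the body wall.

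RefSeq sequences of the 250 bases before the start site are shown for 4 of the genes whose values varied together over the tumors, since muscle promoters are known for E-boxes bound by MyoD family factors, MEF2 sites and CArG boxes. They were available for 8 of the 10 genes, of which 5 had a row, and are given in GRCm38.p6, 5′ to 3′ on the gene's strand. Capitals mark matches to CANNTG and its subset CAGCTG, to TATAAA on the gene's strand, to the MEF2 site and to the CArG box, the others being searched on both strands.
Ckm, chr7:19410844-19411093, plus strand: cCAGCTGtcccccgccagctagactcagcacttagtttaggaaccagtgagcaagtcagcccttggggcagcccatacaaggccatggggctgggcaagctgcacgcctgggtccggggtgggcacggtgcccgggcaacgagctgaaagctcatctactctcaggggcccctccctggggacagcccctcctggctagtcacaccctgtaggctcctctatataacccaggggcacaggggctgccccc
Acta1, chr8:123894776-123895025, minus strand: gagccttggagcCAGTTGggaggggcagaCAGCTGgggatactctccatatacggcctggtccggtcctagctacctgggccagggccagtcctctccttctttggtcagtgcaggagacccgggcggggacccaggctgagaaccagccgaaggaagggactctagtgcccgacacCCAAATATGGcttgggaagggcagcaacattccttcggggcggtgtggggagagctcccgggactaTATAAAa
Mylpf, chr7:127211358-127211607, plus strand: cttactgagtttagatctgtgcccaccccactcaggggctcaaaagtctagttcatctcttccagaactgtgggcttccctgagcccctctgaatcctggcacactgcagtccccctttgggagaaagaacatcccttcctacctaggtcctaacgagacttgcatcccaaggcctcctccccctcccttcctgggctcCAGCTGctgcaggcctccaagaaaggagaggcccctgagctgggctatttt
Ttn, chr2:76982548-76982797, minus strand: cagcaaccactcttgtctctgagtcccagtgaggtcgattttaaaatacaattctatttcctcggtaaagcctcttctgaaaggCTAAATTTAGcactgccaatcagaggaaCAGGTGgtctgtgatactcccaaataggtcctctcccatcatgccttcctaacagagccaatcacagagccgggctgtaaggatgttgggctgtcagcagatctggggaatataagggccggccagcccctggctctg

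Counted from the start site, the window of Ckm held CAGCTG at -249 to -244. Acta1 held CANNTG at -238 to -233, CAGCTG at -221 to -216, a CArG box at -73 to -64 and TATAAA at -7 to -2. Mylpf held CAGCTG at -51 to -46, and Ttn held a MEF2 site at -166 to -157 and CANNTG at -138 to -133. Among the 5 genes with both a row and a promoter sequence, which include Tnnc2, CANNTG was found in 5, as in 66.2% of all 32851 RefSeq mouse promoters of the same length. CAGCTG was found in 3 of the 5, compared with 13.0% of all promoters. TATAAA, the MEF2 site and the CArG box were each found in 1 of the 5, compared with 7.59%, 2.92% and 1.47% of all promoters. These matches are letters in a window and not measured binding sites. Positions count from the RefSeq start, which was not checked here. Those of Acta1, with TATAAA at -7 to -2, would shift with another start.

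The values in the table are estimated counts per gene that the authors had normalized by the median ratio method, called normalized counts below. Column totals lay between 31995078 and 42153593 and the depth in reads is unknown. Resf1 itself was at 4099 ± 400 normalized counts in wildtype tumors (SD, n = 5) and 3516 ± 361 in gene trap tumors (SD, n = 5), a log2 difference of -0.22 (SE 0.09; exact permutation test, two-sided p = 0.0635; limma adjusted p = 0.9997). Gene trap tumor 2 stood apart from the other tumors, with 926 genes more than 2-fold below every other tumor and 230 more than 2-fold above, compared with 11 to 53 and 4 to 55 in the other 9. Mammary epithelial markers were high in all tumors: the summed level of 10 of 10 listed markers lay between 123045 and 158067 in wildtype and between 124507 and 156159 in gene trap tumors, and Epcam lay between 19190 and 25278.

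The skeletal muscle genes with a row had values above 0 in every tumor, as did every gene of the table. Their levels varied more than 10-fold between wildtype tumors. Acta1 (ENSMUSG00000031972) encodes the alpha-actin of skeletal thin filaments. It was at 328, 1235, 1271, 1561 and 4520 normalized counts in wildtype tumors 1 to 5 and at 734, 1441, 1885, 2401 and 999 in gene trap tumors 1 to 5. Wildtype tumor 5 was the highest and wildtype tumor 1 the lowest, and every gene trap value fell between them. Since actin genes are close in sequence, reads may have been shared between Acta1 and its relatives.

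Tnnt3 (ENSMUSG00000061723), the fast troponin T that binds tropomyosin, was at 81.8, 306, 344, 382 and 1546 normalized counts in wildtype tumors 1 to 5 and at 218, 313, 476, 563 and 222 in gene trap tumors 1 to 5. Tnnc2 (ENSMUSG00000017300), the calcium-binding troponin C of fast fibers, was at 71.5, 207, 305, 272 and 1183 in the wildtype tumors and at 179, 338, 348, 459 and 179 in the gene trap tumors. Both troponin genes thus had the same tumors at the top and at the bottom as Acta1, and their groups overlapped.

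Mylpf (ENSMUSG00000030672) encodes the fast regulatory light chain of myosin. It was at 141, 296, 427, 413 and 1765 normalized counts in wildtype tumors 1 to 5 and at 293, 483, 489, 759 and 356 in gene trap tumors 1 to 5. Its lowest value stood closer to the rest than that of Actn3 (ENSMUSG00000006457), the alpha-actinin of fast fibers. Actn3 was at 40.3, 247, 215, 214 and 850 in the wildtype tumors and at 135, 194, 319, 411 and 149 in the gene trap tumors. Wildtype tumors 1 and 5 were again the lowest and the highest for both genes.

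Ttn (ENSMUSG00000051747), the giant sarcomeric spring, was at 4233, 6766, 8899, 12553 and 57891 normalized counts in wildtype tumors 1 to 5 and at 9880, 9080, 18426, 16991 and 9358 in gene trap tumors 1 to 5. Ckm (ENSMUSG00000030399), the muscle creatine kinase, was at 123, 539, 604, 594 and 2387 in the wildtype tumors and at 365, 599, 741, 1023 and 373 in the gene trap tumors. Here too wildtype tumor 5 was above and wildtype tumor 1 below all others. In bulk tumor RNA, fewer muscle cells and less RNA per muscle cell cannot be told apart.

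**Figure D1:**
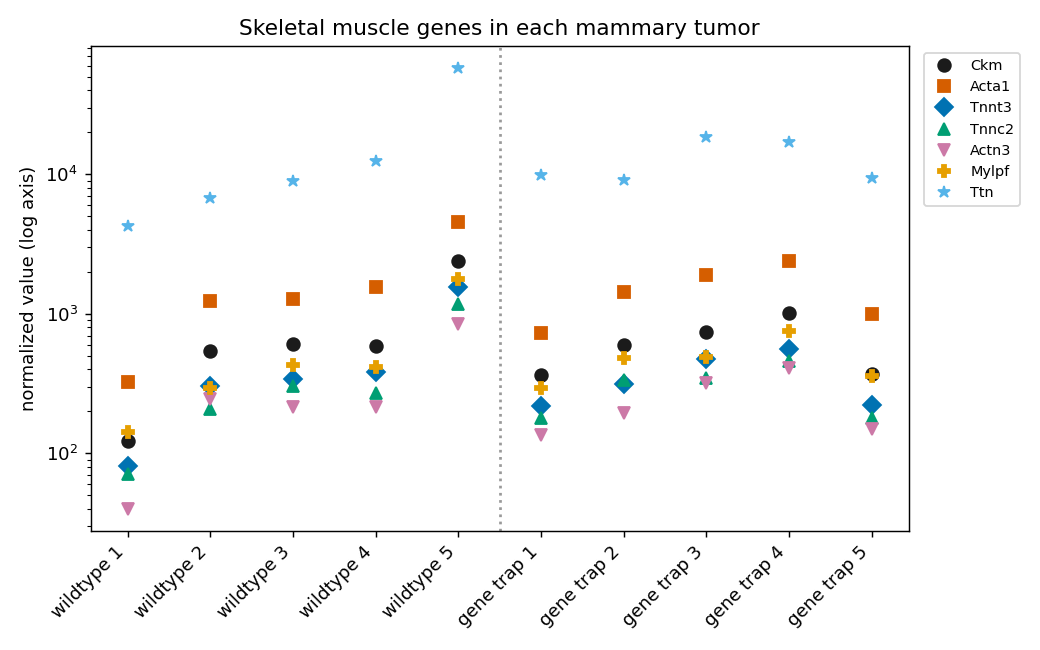
Normalized counts (log10 axis) of the 7 skeletal muscle genes in each of the 10 tumors, 5 wildtype and 5 gene trap, with 1 point per gene and tumor. Wildtype tumor 5 holds the highest and wildtype tumor 1 the lowest value of all 7 genes.

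The order of the tumors was shared by the genes. Wildtype tumor 5 was highest and wildtype tumor 1 lowest for 7 of 7 genes, and over all genes tested the same pair was found at both ends for 231 genes, or 1.1%. Gene trap tumor 4 was second for 6 genes, and gene trap tumor 3 was second for Ttn. The highest value exceeded the lowest 12.5-fold for Mylpf, 13.7-fold for Ttn, 13.8-fold for Acta1, 16.5-fold for Tnnc2, 18.9-fold for Tnnt3, 19.5-fold for Ckm and 21.1-fold for Actn3. Wildtype tumor 5 was 1.88-fold to 3.14-fold above the second tumor, and wildtype tumor 1 was 1.60-fold to 3.35-fold below the next. The other 8 tumors lay closer together.

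Spread was therefore compared with that of all genes, as the SD of the log2 values over the 10 tumors. It was between 0.948 (Mylpf) and 1.13 (Actn3) for the 7 genes, at the 98.0th to 99.0th percentile of all genes tested. The median SD of all genes tested was 0.251. As the 7 genes were chosen with earlier results of these data known, these percentiles are descriptions. Within wildtype tumors the SD of the muscle genes was 1.32 to 1.55, and within gene trap tumors it was 0.501 to 0.694, while the medians of all genes were 0.206 and 0.248. The median SD of the 7 genes was 1.05 over all tumors, 0.811 without wildtype tumor 5, 0.821 without wildtype tumor 1 and 0.493 without both.

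**Figure D2:**
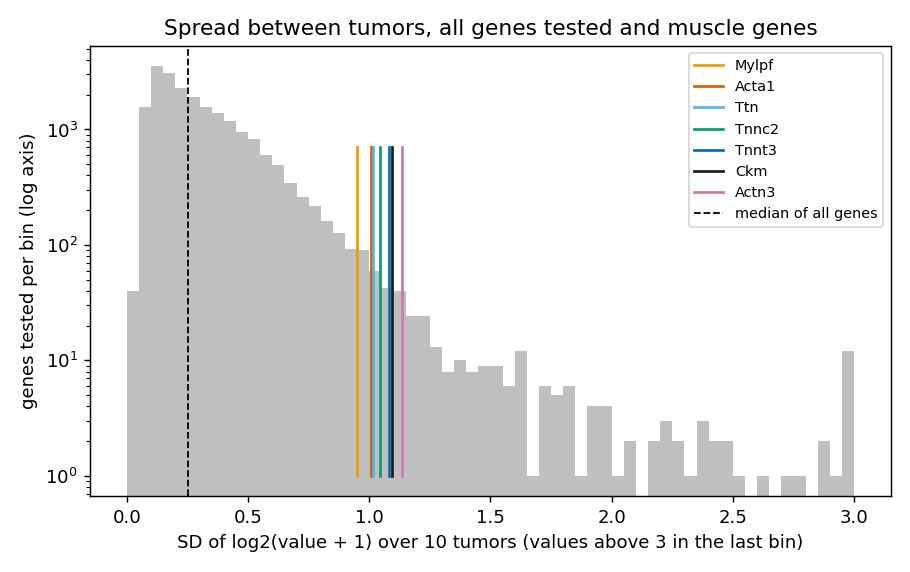
Histogram of the SD of log2(normalized count + 1) over the 10 tumors for all genes tested (gray bars, number of genes per bin on a log axis, values above 3 in the last bin), with a colored line for each of the 7 skeletal muscle genes and a dashed line for the median of all genes (0.251). The 7 lines lie between 0.948 and 1.13, above the 95th percentile of all genes (0.742).

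The muscle genes kept near-constant proportions to each other while their levels moved more than 10-fold. Relative to Ckm in the same tumor, Tnnt3 ranged from 0.523 to 0.667, a 1.28-fold spread, and Actn3 ranged from 0.325 to 0.458, a 1.41-fold spread. Acta1 ranged from 1.89 to 2.68 and Tnnc2 from 0.383 to 0.583 times Ckm. Mylpf and Ttn were less fixed. The ratio of Mylpf to Ckm ranged from 0.549 to 1.15 and that of Ttn to Ckm from 12.6 to 34.5. Both were highest in wildtype tumor 1, where Ckm itself was lowest, as were the ratios of Tnnt3 (0.667) and Tnnc2 (0.583).

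**Figure D3:**
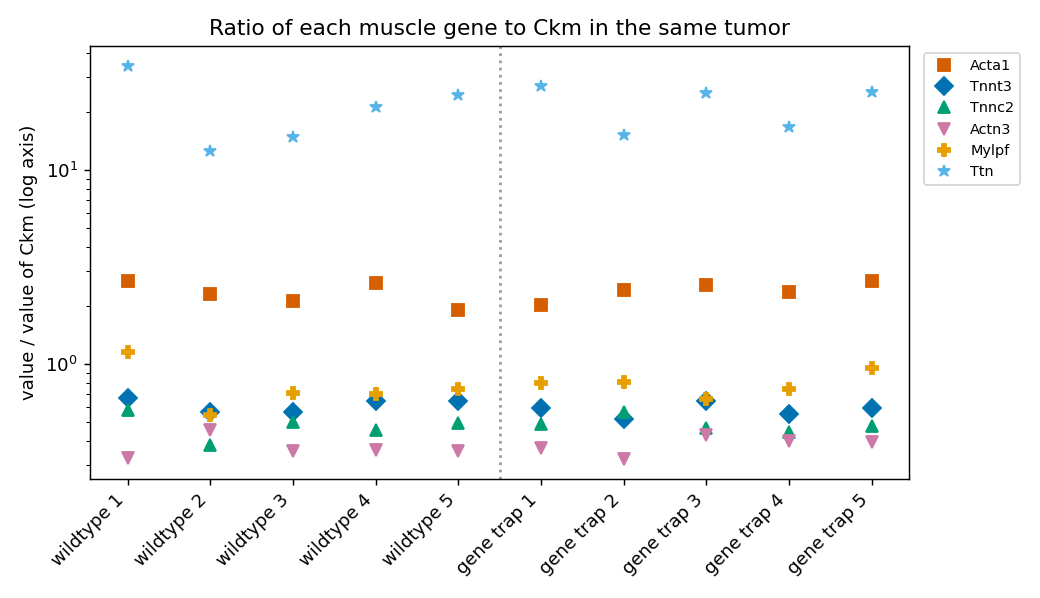
Ratio of 6 skeletal muscle genes to Ckm in the same tumor (log10 axis), with 1 point per gene and tumor. The ratio of Tnnt3 stays between 0.523 and 0.667, whereas that of Ttn ranges from 12.6 to 34.5.

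Over the 10 tumors, Pearson's r between log2 values was 0.884 (Actn3 and Ttn) to 0.994 (Ckm and Tnnt3) for the 21 pairs of muscle genes, with a median of 0.970. The median of Spearman's rho was 0.915, with a range of 0.636 to 0.988. Without wildtype tumors 1 and 5, r lay between 0.620 and 0.977 with a median of 0.877 over 8 tumors. The pairs share the same libraries and scaling, so these correlations are descriptions.

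Levels were compared between genes per kilobase of the longest coding transcript. The median over tumors was 938 normalized counts per kilobase for Acta1, 548 for Mylpf, 412 for Tnnc2, 304 for Tnnt3, 217 for Ckm, 90.1 for Ttn and 74.2 for Actn3. Each gene exceeded the next in this order in 10 of 10 tumors, except that Ttn exceeded Actn3 in 9 of 10. This order holds for the longest transcripts. Acta1, Mylpf, Tnnt3 and Ttn also have coding transcripts as short as 616, 268, 342 and 271 bases, with which their levels per kilobase were not computed, and Tnnc2 and Actn3 have 1 coding transcript each. Ckm was computed with both of its transcripts. With its 1235-base transcript in place of the 2742-base one its median was 483, above Tnnc2 in 9 of 10 tumors and above Mylpf in 1 of 10. On the deposited scale the 7 genes together made up 0.0150% of the column total in wildtype tumor 1, 0.218% in wildtype tumor 5 and 0.0259% to 0.0695% in the other tumors. Ttn alone was 70.5% to 84.4% of this sum.

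The comparison of gene trap with wildtype tumors asked whether the muscle genes differed with Resf1 genotype. No muscle gene passed the test, and in all 7 the gene trap values lay within the range of the wildtype values. Over all genes, 0 of 21034 had a limma adjusted p below 0.05 (0%), 479 had an unadjusted p below 0.05 (2.28%), and 111 had groups that did not overlap (0.528%). For the muscle genes these counts were 0, 0 and 0 of 7. The log2 difference, gene trap minus wildtype, was above 0 for 6 genes and below 0 for 1, with a median of 0.08, compared with 0.0047 for all genes.

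Ckm was at 849 ± 882 normalized counts in wildtype and 620.0 ± 275 in gene trap tumors (SD, n = 5 per group), with a log2 difference of 0.02 (95% interval -1.29 to 1.34; exact permutation test, two-sided p = 0.976). Acta1 was at 1783 ± 1599 and 1492 ± 671, with a log2 difference of 0.08 (95% interval -1.13 to 1.28; exact permutation p = 0.929). Mylpf was at 608 ± 657 and 476 ± 179, with a log2 difference of 0.10 (95% interval -1.03 to 1.24; exact permutation p = 0.873). The mean of the deposited values was lower in gene trap tumors for 7 of 7 genes, while the log2 difference was above 0 for 6 of them.

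Ttn was at 18069 ± 22469 and 12747 ± 4566, with a log2 difference of 0.10 (95% interval -1.11 to 1.31; exact permutation p = 0.905). Tnnt3 was the gene with a difference below 0, at 532 ± 579 and 358 ± 155, or -0.07 on the log2 scale (95% interval -1.37 to 1.23; exact permutation p = 0.905). For Tnnc2 the log2 difference was 0.05 (95% interval -1.21 to 1.31) and for Actn3 it was 0.08 (95% interval -1.29 to 1.44). All 7 genes had a limma adjusted p of 0.9997. Across the 7 genes the lowest lower bound was a ratio of 0.388 (Tnnt3) and the highest upper bound was 2.71 (Actn3). Each gene's own interval was wide and included a ratio of 1. These tumors therefore do not settle the size or the direction of a difference.

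The sign of the difference changed with the tumors included. Without wildtype tumor 1 the log2 difference was below 0 for all 7 genes, from -0.59 (Tnnt3) to -0.25 (Ttn), and without wildtype tumor 5 it was above 0 for all 7, from 0.47 (Tnnt3) to 0.69 (Ttn). The unadjusted limma p of Ttn was 0.0492 without wildtype tumor 5. Gene trap tumors turned the sign as well, by smaller amounts. Without gene trap tumor 4 all 7 differences were below 0, from -0.26 (Tnnt3) to -0.02 (Ttn). Without gene trap tumor 3 the differences were below 0 for 6 genes, with Mylpf at 0.07. Without gene trap tumor 1 or 5 all 7 were above 0, with Tnnt3 at 0.08 in both cases. Without wildtype tumor 2 those of Mylpf, Tnnc2 and Ttn turned to -0.02, -0.05 and -0.08, and without gene trap tumor 2 that of Tnnc2 turned to -0.02.

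**Figure D4:**
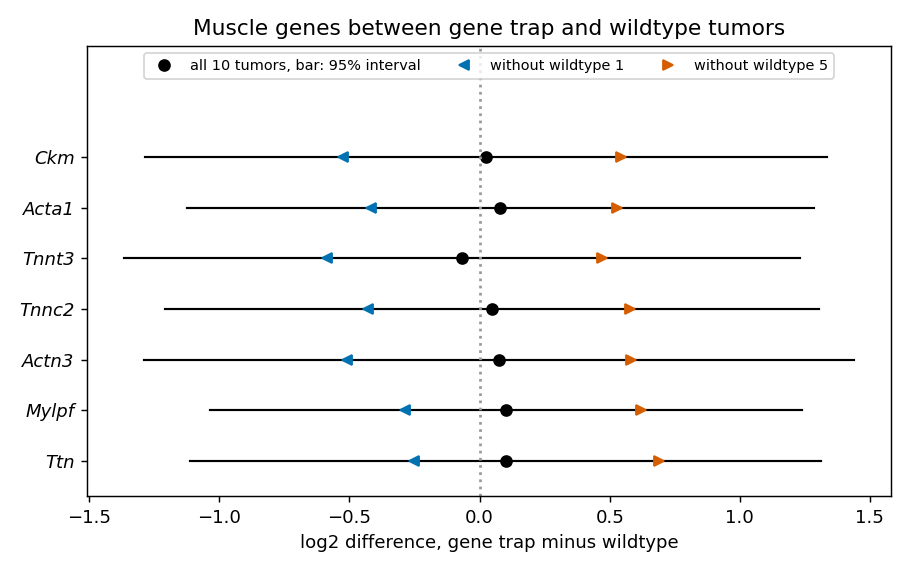
Log2 difference (gene trap minus wildtype) of the 7 skeletal muscle genes, with bars for the 95% interval of the limma fit and marks for the fits without wildtype tumor 1 and without wildtype tumor 5. All intervals include 0, and leaving out either tumor moves all 7 values to one side of 0, in opposite directions.

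The 10 other genes whose log2 values were most like the mean z score of the 7 muscle genes were named by Pearson's r over the 10 tumors, among 21027 genes. These were Pygm (r = 0.988), the glycogen phosphorylase of muscle, Hspb6 (0.984), a small heat shock protein, Mybpc2 (0.981), the fast myosin-binding protein C, Txlnb (0.981), Tnni2 (0.980), the fast troponin I, Scn4b (0.978), a sodium channel subunit, Eno3 (0.978), the muscle enolase, Rpl3l (0.977), a ribosomal protein paralog, Myom1 (0.976), an M-band protein, and Smyd1 (0.975), a lysine methyltransferase of muscle. Pygm was at 45.7 normalized counts in wildtype tumor 1, 135 to 408 in 8 tumors and 1041 in wildtype tumor 5. Mybpc2 was at 106, 312 to 860 and 1851 in the same order. Hspb6 followed the same tumors over a smaller range, from 102 to 293, a 2.89-fold spread. Without wildtype tumors 1 and 5 the r of these 10 genes lay between 0.860 and 0.975.

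In all, 51 genes had r of at least 0.9 and 4 had r of -0.9 or below, while the median of all genes was -0.0077. Of the 50 most alike, 24 belonged to the lists of other sarcomere, calcium handling and muscle energy genes, which hold 0.219% of the genes tested.

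Other sarcomere genes followed the same tumors. Of 31 listed, 19 were tested, and 18 were highest in wildtype tumor 5 and 16 lowest in wildtype tumor 1. Against the wildtype tumors, 4 were above 0 and 15 below 0 in log2 difference (median -0.09), and 0 passed at an adjusted or an unadjusted limma p of 0.05. Neb, which encodes the thin filament ruler nebulin, was at 522 to 7475 normalized counts in wildtype and 1180 to 2728 in gene trap tumors. Myh2, the myosin heavy chain of fast oxidative fibers, named after its values were seen because Myh1 and Myh4 had no row, was at 71.1, 168, 189, 256 and 1194 in wildtype tumors 1 to 5 and at 85.2, 107, 312, 256 and 171 in gene trap tumors 1 to 5. Tpm1 and Fbxo32 were at higher levels with a smaller spread. Tpm1, a tropomyosin that other cells also make, ranged from 8022 to 12780, and Fbxo32, the ubiquitin ligase atrogin, ranged from 3870 to 6445.

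Genes of calcium release and reuptake behaved likewise, as 10 of 11 tested were highest in wildtype tumor 5 and 7 were lowest in wildtype tumor 1. Atp2a1, the calcium pump of fast fibers, was at 69.1 in wildtype tumor 1, 195 to 707 in 8 tumors and 1677 in wildtype tumor 5. Srl, which encodes sarcalumenin, ranged from 500 to 1418, and Tmem38a, a cation channel of the sarcoplasmic reticulum, ranged from 423 to 838. Of 16 energy metabolism genes tested, 13 were highest in wildtype tumor 5 and 9 lowest in wildtype tumor 1. For both lists the shares of all genes tested were again 10.1% and 8.35%. Gpd1, an enzyme of glycerol phosphate metabolism also made in fat, was highest in gene trap tumor 2 at 3339. Pfkm and Phka1 ranged from 1306 to 2074 and from 390.1 to 720.3. The median log2 difference was -0.05 in both lists, with 4 above and 7 below 0 for calcium handling and 6 above and 10 below 0 for energy metabolism, and 0 genes in either list passed at an adjusted or an unadjusted limma p of 0.05.

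Genes of slow fibers had a median r of 0.388 with the muscle genes. Of 12 listed, 6 were tested, of which 2 were highest in wildtype tumor 5, 1 was lowest in wildtype tumor 1 and 0 were both, compared with 10.1%, 8.35% and 1.1% of all genes tested. The median log2 difference of the list was -0.24, with 1 above and 5 below 0. At an adjusted or an unadjusted limma p of 0.05, 0 genes of the list passed. The slow isoforms Myh7, Myl2, Myl3 and Tnni1 had no row, but the slow troponins Tnnt1 and Tnnc1 were tested. Both were named after their values were seen. Tnnt1 was at 46.1 in wildtype tumor 5, 45.4 in wildtype tumor 3 and 5.34 to 22.9 in the other tumors. Tnnc1 was at 30.4, 31.8 and 3.69 to 13.5 in the same order. Their log2 differences were -0.95 (SE 0.50) and -0.89 (SE 0.49), the farthest from 0 in the list. The sum of the list was led by Atp2a2 and Tpm3, which many cell types express, and that sum lay between 11609 and 13827 in the 10 tumors. Casq2, a calsequestrin of slow and cardiac muscle, was at 69.1 in wildtype tumor 5 and at 21.2 to 39.7 in the other tumors. Among regulators of muscle stem cells and myoblasts, Mef2c and Msc were tested, and Pax7, Myod1 and Myog had no row. Mef2c, also made in other cells, ranged from 483 to 878. Of 10 cardiac genes 4 were tested, and their median r with the muscle genes was -0.04. Of 9 neuromuscular junction genes 3 were tested, with 0 highest in wildtype tumor 5, and Chrnb1, a subunit of the acetylcholine receptor, ranged from 595 to 1196.

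**Figure D5:**
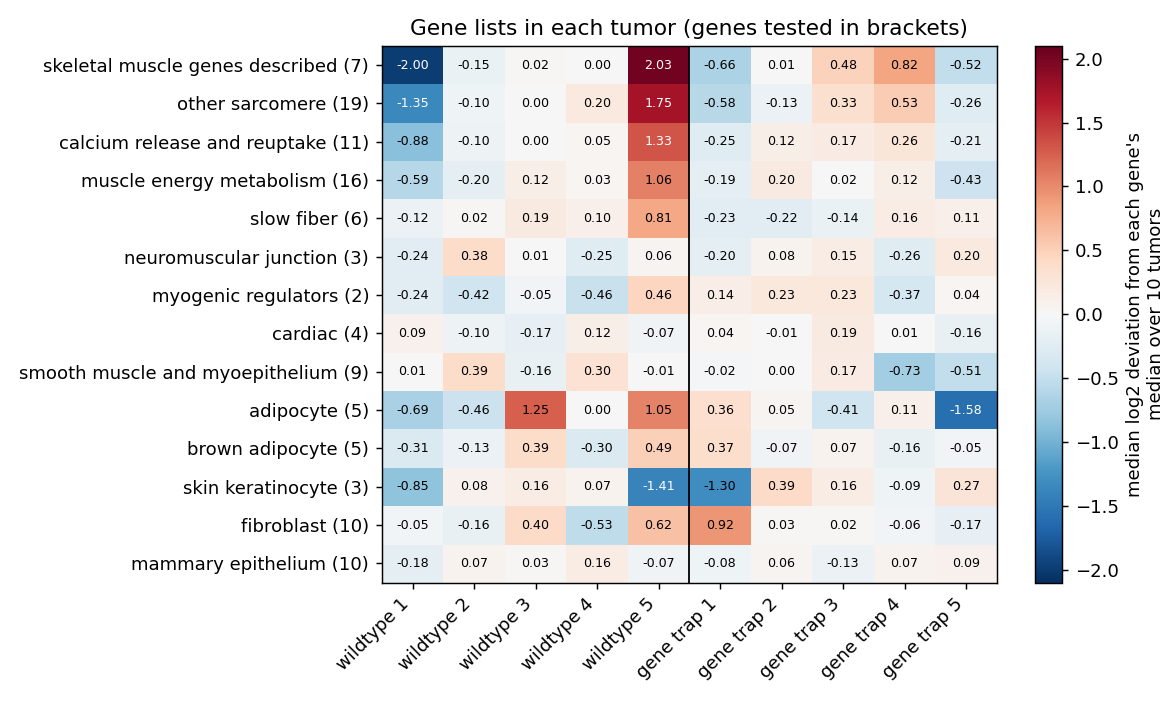
Deviation of each gene list in each tumor, as the median over the list's genes of the log2 value minus the gene's median over the 10 tumors, for the 7 muscle genes and 13 other lists. The 7 muscle genes and the lists of sarcomere, calcium and energy genes are highest in wildtype tumor 5, with deviations of 1.06 to 2.03, and lowest in wildtype tumor 1, with -1.995 to -0.59.

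Markers of other cell types were followed in the same tumors, and fat markers shared part of the pattern. White adipocyte markers, of which 5 of 11 were tested, had a median r of 0.511 with the muscle genes, and their summed level was 3357 in wildtype tumor 1, 11564 in wildtype tumor 5 and 12976 in wildtype tumor 3, the highest, while gene trap tumors lay between 2129 and 7432. Fabp4, a fatty acid binding protein of fat cells, led this list with 500 to 3555. The log2 difference was below 0 for all 5, with a median of -0.48 and 0 at an adjusted or an unadjusted limma p of 0.05. Of 7 brown adipocyte markers 5 were tested, with a median r of 0.156. Their summed levels were 556 to 956 in wildtype and 590.4 to 797.5 in gene trap tumors. The sum was highest in wildtype tumor 5 and lowest in wildtype tumor 4, with 652 in wildtype tumor 1. The median deviation from each gene's median was also taken on the log2 scale. White adipocyte markers were at -0.69 in wildtype tumor 1 and 1.05 in wildtype tumor 5. Brown adipocyte markers were at -0.31 in wildtype tumor 1, -0.30 in wildtype tumor 4 and 0.49 in wildtype tumor 5. The brown markers were split, as 2 of 5 were highest in wildtype tumor 5 and 0 were lowest in wildtype tumor 1. Ppargc1a was highest in wildtype tumor 1, at 230 normalized counts. Among the brown markers Prdm16, a regulator of brown fat fate, had an unadjusted limma p of 0.0247 and an adjusted p of 0.9997, with a log2 difference of 0.72. Fibroblast markers, 10 of 10 tested, had a median r of 0.184 and summed to 64775 in wildtype tumor 1, 87383 in wildtype tumor 5 and 123905 in gene trap tumor 1. All 10 were above 0 in log2 difference, with a median of 0.13 and 0 at an adjusted or an unadjusted limma p of 0.05.

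Smooth muscle and myoepithelial genes, 9 of 10 tested, had a median r of -0.09 with the skeletal muscle genes. Acta2, the smooth muscle actin, was highest in wildtype tumor 4 at 3155 and lowest in gene trap tumor 5 at 1187. The log2 difference was below 0 for 8 of the 9, and Myh11, the smooth muscle myosin, had an unadjusted limma p of 0.0186 and an adjusted p of 0.9997, with a log2 difference of -0.67. Skin keratinocyte markers, 3 of 10 tested, had a median r of -0.15, with the highest sum in wildtype tumor 2. Their median SD over the tumors was 1.57, above the 1.05 of the muscle genes. The highest value exceeded the lowest 25.5-fold for Krt10, 16.4-fold for Krt6a and 2.08-fold for Sbsn. Mammary epithelial markers had a median r of 0.151, with a lowest summed level of 123045 in wildtype tumor 1 and 131302 in wildtype tumor 5. The part of any of these cell types in the spread of the muscle genes was not tested.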

How the data were processed

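Total RNA from mammary tumors was made into stranded libraries. STAR 2.7.8a, Partek, DESeq2 and build mm39 are named in the submitters' processing notes, and the counter and annotation are not given in the sources used here. The authors deposited a normalized signal, estimated counts per gene scaled by the median ratio method before deposition. Of the 16 columns of values, 10 matched a labelled tumor (5 wildtype, 5 gene trap), and 6 named by an animal's number were not used. Symbols were found for 22899 of 23609 genes. No value was 0, values were not whole reads, and depth is unknown.

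Values were tested as log2(value + 1) in limma 3.58.1 (R 4.3.3) with a mean-variance trend, over genes with a mean of at least 10, with Benjamini-Hochberg adjustment. A fold change on this scale understates that of low genes. Single genes were also tested with an exact permutation test, two-sided, in which the 252 possible arrangements of tumors allow a smallest p of 0.00794 (scipy 1.17.1). The fit was checked on simulated data. The alternatives were other pseudocounts (0.5, 10), filters, scalings, variance models, a replicate block and leaving out tumors. Leaving out wildtype tumors 1 and 5 together was chosen after seeing the data.

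Transcript lengths are from GENCODE M21 and promoters from RefSeq, both GRCm38; no position of the table was used. The muscle genes and all lists were chosen with earlier results of these data known. Named genes were the muscle genes, Resf1, up to 3 genes of highest mean per list (printed for the lists where they bear on the result), and the 10 genes of highest r. Myh2, Tnnt1 and Tnnc1 were named in addition, after their values were seen.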

Additional observations from a re-analysis of the deposited data

Results flagged for a closer look

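On the deposited scale, wildtype tumor 5 lay far above the other 4 wildtype tumors for 6 of the 7 muscle genes, by Dixon's test at the 95% level. Its values were 2387 normalized counts for Ckm, 1546 for Tnnt3, 1183 for Tnnc2, 850.1 for Actn3, 1765 for Mylpf and 57891 for Ttn. The gap to the next wildtype tumor divided by the range was 0.745 to 0.845, above the critical value of 0.710 for 5 samples, and was 0.706 for Acta1. These are 6 of 14 groups tested (7 genes in 2 groups), all from 1 tumor. With independent groups, chance flags about 1 in 20, or 0.7 of 14. The genes varied together over the tumors, so the 6 flags are not separate events and cannot be set against that number. On the log2 scale 0 of 14 groups were past the critical value.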

How the results depend on the processing

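The number of genes with an adjusted p below 0.05 was 0 under all 20 alternatives, and that with an unadjusted p below 0.05 was 305 to 826. The median log2 difference of the muscle genes was 0.08, and leaving out each tumor in turn gave -0.43 to 0.58 and 0 to 1 muscle genes at an unadjusted p below 0.05. By gene these ranges were -0.52 to 0.54 (Ckm), -0.42 to 0.53 (Acta1), -0.59 to 0.47 (Tnnt3), -0.43 to 0.58 (Tnnc2), -0.51 to 0.58 (Actn3), -0.29 to 0.62 (Mylpf) and -0.25 to 0.69 (Ttn), with wildtype tumor 1 left out at the low end and wildtype tumor 5 at the high end. The difference of Ckm turned to -0.0029 with equal column totals, to -0.027 with weights per tumor and to -0.012 without wildtype tumors 1 and 5. That of Tnnc2 turned to -0.041 with weights per tumor, and that of Actn3 to -0.032 without wildtype tumors 1 and 5. Without these 2 tumors the median SD of the muscle genes fell from 1.05 to 0.493.

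Same-numbered tumors did not deviate together on average (mean correlation -0.0098 over 5 pairs, from -0.156 to 0.149). The labels state no pairing, and these correlations cannot tell whether such tumors share more than a number. With the replicate number as a block the median difference was 0.08, with 0 genes at an adjusted and 426 at an unadjusted p below 0.05, and no call changed. The 5 tumors per group and the unknown depth limit the precision. Values of Myh4, Myh1 and Pvalb, and of the 6 columns not used, do not enter any result.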

Other observations

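In wildtype tumor 5, 55 genes were more than 2-fold above every other tumor. Of these, 6 were among the 7 muscle genes and 19 were in the lists of other sarcomere, calcium handling and muscle energy genes. These lists hold 46 of the 21034 genes tested. In wildtype tumor 1, 53 genes were more than 2-fold below every other tumor, of which 6 were among the 7 muscle genes and 10 were in these lists. Both tumors had already been seen as the extremes of the muscle genes, so these counts are descriptions.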
